A study of Mus musculus with 12 samples.

Results

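The collagen genes of white and brown fat were taken as the rows of the authors' deposited comparison tables that were protein-coding and carried a symbol of the form Col, number, a, number. This gave 33 collagen genes among the 16738 genes of the inguinal white fat table and 25 among the 15363 of the brown fat table. Of these, 24 were in both tables, 9 in the white fat table only and 1, Col20a1, in the brown fat table only, which makes 34 genes in all. The tables hold only genes that the authors kept, and the sources used here do not state their rule for low values. Of 45 collagen symbols sorted into classes for this work, 11 (among them Col2a1, Col8a2 and Col10a1) were in neither table and were not analysed here.

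The labels describe RNA sequencing of inguinal white fat (iWAT), the subcutaneous fat of the groin, from C57BL/6 mice fed a high-fat diet and kept at room temperature. Both sexes were sampled as WT and as KO, which gives 4 groups of 3 libraries each, and KO stands for loss of NDUFS4, a subunit of complex I of the respiratory chain, in adipocytes. The sources used here state neither the driver of the deletion, nor the age of the mice, nor how many animals gave a library. A p-value therefore measures only how much these libraries vary, which may be technical. The labels list no brown fat (BAT) library, so the brown fat values are used only as the authors' comparison. The measure in both tables is the interaction of genotype and sex on a log2 scale, which the names of the tables give as the difference of the KO effects in the sexes, read here as females minus males, and every sign below rests on that reading. A value above 0 can come from a higher level in KO females, a lower level in KO males, or differences between the WT groups, which these tables do not separate. Values per library were not analysed here, the depth behind each value is unknown, and error is given as the standard error (SE) of the authors' limma fit.

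Collagens are trimeric proteins of the extracellular matrix whose chains wind into a triple helix, with glycine at each position that faces the core. Fibrillar collagens build the cables of connective tissue, type IV collagens form the sheet of the basement membrane that surrounds every fat cell and vessel, and the other classes join, coat or anchor these structures. In fat, fibroblasts and preadipocytes make most fibrillar collagen, while adipocytes, endothelial cells and mural cells lay down basement membrane. Excess collagen around adipocytes is known as adipose fibrosis and limits how far the depot can expand.

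Ndufs4 itself had an interaction of 0.89 ± 0.38 (SE, adjusted p = 0.169) in the white fat part of the authors' deposited tables and -0.10 ± 0.14 (adjusted p = 0.946) in the brown one, which does not check the genotype labels. Adipocyte markers were abundant in both tables, with a mean log2 expression in the authors' deposited tables of 11.12 in white and 10.35 in brown fat for Adipoq, the adiponectin gene. Ucp1, the uncoupling protein that defines brown fat, was at 12.54 in brown and 4.36 in white fat in the same tables. Other cell types were also present. In white fat, where 4.75% of all genes passed an adjusted p of 0.05 and 55.9% lay above 0, all 9 T cell markers lay below 0 (median -8.17) and 8 passed. All 8 B cell markers lay below 0 too (median -8.61), and 4 passed. All 8 skeletal muscle markers lay above 0 in white fat (median 3.70), and 7 of 8 lay below 0 in brown fat (median -3.30), none of them past the adjusted p. In brown fat 51.0% of all genes lay above 0 and 0.013% passed. The part of these cell types in the collagen values below was not tested.

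Of the 8 fibrillar collagen genes, 7 had an interaction above 0 in white and below 0 in brown fat. The upstream sequences of 3 of these 7 are shown because these 3 genes differ in the motifs before their starts. Each is the stretch of 250 bases just before the annotated start of the gene, 5′ to 3′ on the gene's strand, from RefSeq on GRCm38.p6. That build is older than the GRCm39 of the deposited tables, so these positions cannot be set against the gene positions given elsewhere. Capitals mark TATAAA (the core of the TATA box), CCAAT (the core of the CCAAT box) or GGGCGG (the core of the GC box), and in each case also the reverse complement. Col3a1 lies on the plus strand (chr1:45311288-45311537), Col27a1 on the plus strand (chr4:63215162-63215411) and Col5a3 on the minus strand (chr9:20815068-20815317).
Col3a1: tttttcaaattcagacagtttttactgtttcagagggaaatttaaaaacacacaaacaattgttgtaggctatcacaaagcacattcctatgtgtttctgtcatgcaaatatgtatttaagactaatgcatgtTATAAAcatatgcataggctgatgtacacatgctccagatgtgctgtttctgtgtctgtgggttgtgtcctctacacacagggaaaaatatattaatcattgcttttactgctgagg
Col27a1: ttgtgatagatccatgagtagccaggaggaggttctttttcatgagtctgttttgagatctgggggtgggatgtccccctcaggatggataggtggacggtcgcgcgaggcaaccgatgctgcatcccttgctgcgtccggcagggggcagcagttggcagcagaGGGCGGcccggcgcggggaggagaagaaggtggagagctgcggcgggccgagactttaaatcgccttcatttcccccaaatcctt
Col5a3: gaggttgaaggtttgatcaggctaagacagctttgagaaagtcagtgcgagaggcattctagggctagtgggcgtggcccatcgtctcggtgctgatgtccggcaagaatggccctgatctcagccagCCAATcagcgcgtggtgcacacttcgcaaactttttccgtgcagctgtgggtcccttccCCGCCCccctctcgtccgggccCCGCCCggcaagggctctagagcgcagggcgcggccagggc

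The Col3a1 stretch held a TATAAA from 117 to 112 bases before the start and neither of the other motifs. That of Col27a1 held a GGGCGG from 85 to 80 bases before it, and that of Col5a3 a CCAAT at 122 to 118 and the complement of GGGCGG at 63 to 58 and 41 to 36. Of the 34 collagen genes 28 had an entry in the RefSeq table, with 30 windows. A GGGCGG was in 19 of these 30 windows (63.3%) against 32.7% of all 32851 windows of the same length. Some windows lie partly or wholly in annotated exons, so this share is not one of upstream sequence alone. The windows of Col1a2, Col4a2 and Col6a4 (each with GGGCGG) and of Col4a1, Col4a4 and Col20a1 (without it) had 0 bases outside exons. CCAAT was in 11 (36.7%, against 33.8%) and TATAAA in 3 (10%, against 12.4%). All were searched on both strands, and none contains another. A match is a description of the sequence only.

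Collagen messages spanned a wide range of levels, and type I and type III collagen led in white fat. Levels between genes are compared per kilobase (kb) of the longest protein-coding transcript in GENCODE M21, as mean log2 expression minus log2 of the length. On this scale Col1a2 (7.50), Col3a1 (7.47) and Col1a1 (6.89) stood first in white fat, followed by Col4a1 (6.80), Col15a1 (5.98), Col4a2 (5.72), Col6a3 (5.45) and Col5a3 (5.34). Col1a2 was at the 98.1st percentile of all genes of the white fat table that have a length. At the low end were Col6a4 (-3.28), Col4a3 (-3.31) and Col6a5 (-3.66), each under the 1st percentile. The authors' means come with no spread here, so neighbours in this order cannot be told apart. With the summed length of all annotated exons in place of the transcript, Col1a1 came first (6.74), ahead of Col3a1 (6.65), Col4a1 (6.63) and Col1a2 (6.28).

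In brown fat Col4a1, a type IV chain, came first. It led with 5.22 per kb and Col4a2 followed with 4.50, ahead of Col1a2 (4.43), Col3a1 (4.28), Col1a1 (4.02) and Col27a1 (3.57), an order with no spread behind it. The other type IV chains in that table, Col4a4 (-1.42) and Col4a5 (-2.17), lay below 7 of the 8 fibrillar genes. The tables were normalised apart, so levels can only be set side by side. Of the 24 shared collagens 21 had a higher mean log2 expression in the white fat table, as did 74.9% of all 14502 shared genes. The median of white minus brown mean log2 expression was 2.53 over the collagens and 0.60 over all shared genes. For fibrillar genes it was 3.03, and for type IV genes 1.36. Col27a1 was the exception among fibrillar genes, with a mean log2 expression of 4.65 in white and 6.50 in brown fat per the authors' deposited tables. The orders of the 24 genes per kb were alike in both depots (Pearson r = 0.859 and Spearman rho = 0.860 across genes, which share transcript length and are not independent replicates).

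**Figure D1:**
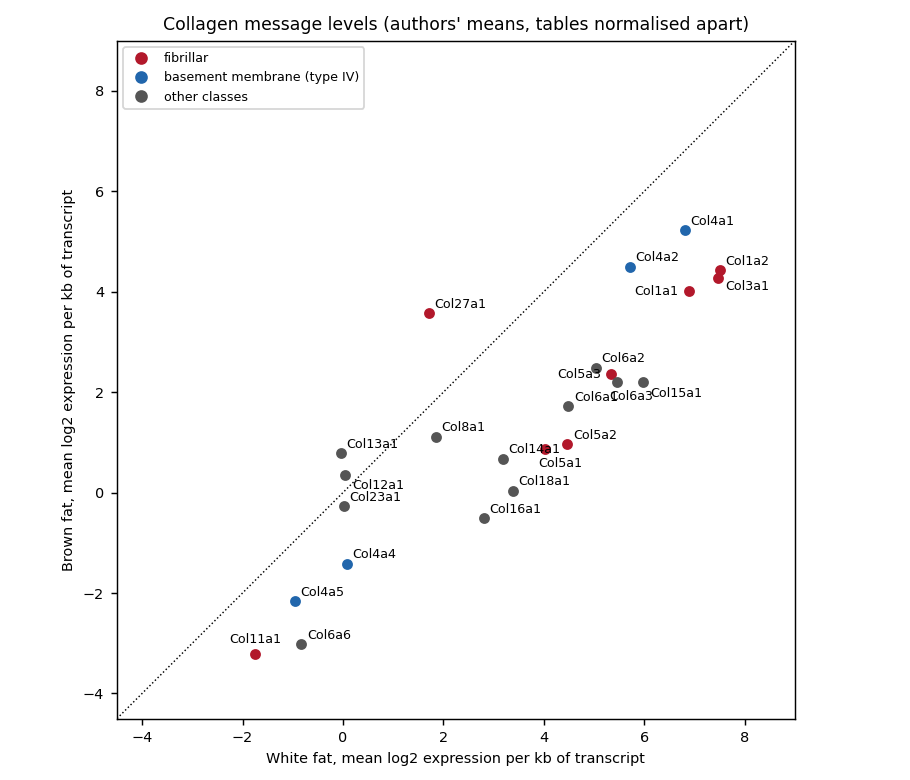
Mean log2 expression per kb of transcript of the 24 collagen genes found in both tables, white fat on the x axis and brown fat on the y axis, coloured by class. Points under the dotted line of equality were higher in the white fat table, and Col27a1 (1.72 and 3.57) is the fibrillar gene above it.

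Did loss of NDUFS4 change collagen messages differently in females and males? In neither depot did a collagen gene pass an adjusted p of 0.05 in the authors' limma fit. The count was 0 of 33 in white fat, where 4.75% of all genes passed, and 0 of 25 in brown fat, where 0.013% passed. The signs leaned one way in each depot. In white fat 28 of 33 collagens lay above 0 (median 0.55), and in brown fat 20 of 25 lay below 0 (median -0.47). The genes of a depot were measured in the same libraries, so these signs are not independent of each other. Their counts were not tested. Over all genes 55.9% lay above 0 in white fat (median 0.13) and 51.0% in brown fat (median 0.01). Relative to the median of all genes, 26 of 33 lay above 0 in white fat, as Col14a1 and Col4a4 changed sign. At an unadjusted p of 0.05, 3 collagens of 33 passed above 0 in white fat (11.9% of all genes did) and 1 below 0 (12.6%). In brown fat 0 of 25 passed above 0 (3.33%) and 5 below 0 (3.18%).

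**Figure D2:**
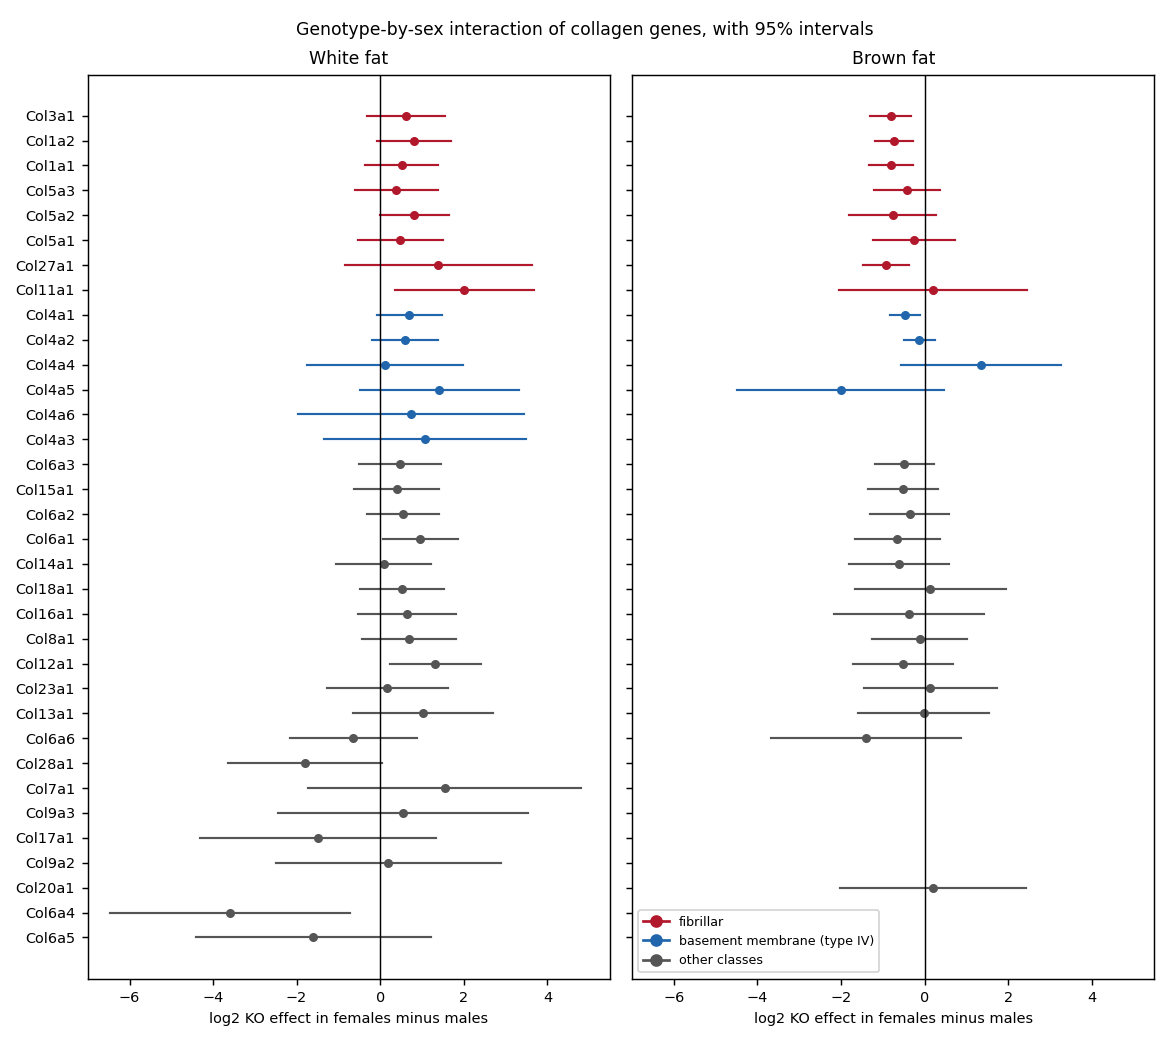
Log2 interaction (KO effect in females minus males, x axis) of each collagen gene in white fat (left) and brown fat (right), with 95% intervals from the authors' limma fit. Genes are coloured by class and ordered within it by mean expression, and a blank row is a gene not in that table. No gene passed the adjusted p, and the 8 fibrillar genes lie above 0 on the left while 7 of 8 lie below 0 on the right.

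The lean was seen in the collagens that are well expressed. All 19 white fat collagens whose mean log2 expression reached log2 of 10 lay above 0, against 59.2% of all genes at that level, with values from 0.09 to 1.39. In brown fat all 16 such collagens lay below 0, from -0.93 to -0.12, while 56.2% of all genes at that level lay above 0. The 5 collagens below 0 in white fat (Col6a4, Col6a5, Col6a6, Col17a1 and Col28a1) all had a mean log2 expression of at most 2.31 per the authors' deposited table. Standard errors were wide at such levels, with a median of 1.19 for the 14 white fat collagens below log2 of 10 and 0.46 for the 19 above.

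Fibrillar collagens. In white fat all 8 measured genes lay above 0 (median 0.70) and none passed. Type I collagen is the main cable of connective tissue and is built from chains of Col1a1 and Col1a2. The interaction of Col1a1 (ENSMUSG00000001506.11, chromosome 11, 94827050 to 94843868, GRCm39) in the white fat part of the authors' deposited tables was 0.51 ± 0.41 (SE, adjusted p = 0.454). Its partner Col1a2 (chromosome 6, 4504814 to 4541544) was at 0.80 ± 0.41 (adjusted p = 0.247) there. Col3a1 (chromosome 1, 45350698 to 45388866), the chain of the finer type III fibrils, was at 0.61 ± 0.43 (adjusted p = 0.402) per the authors' deposited table. The 95% intervals of these 3 genes ran from -0.36 to 1.38, from -0.09 to 1.68 and from -0.33 to 1.55, so each includes 0.

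The same genes had the smallest p-values of all collagens in brown fat, together with Col27a1. In the brown fat part of the authors' deposited tables Col1a1 was at -0.80 ± 0.25 (p = 0.00340, adjusted p = 0.551). Col1a2 was at -0.73 ± 0.23 (p = 0.00284, adjusted p = 0.523) per the authors' deposited table. Col3a1 was at -0.81 ± 0.24 (p = 0.00182, adjusted p = 0.459) per the authors' deposited table. Col27a1, a fibrillar collagen best known from cartilage, was at -0.93 ± 0.27 (p = 0.00153, adjusted p = 0.407) per the authors' deposited table. Ranked by p among 15363 genes they stood 94th, 83rd, 61st and 58th. A value of -0.81 means that the KO to WT ratio in females was 0.569 times that in males, and its 95% interval on the log2 scale, -1.30 to -0.33, lies below 0 before adjustment only.

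Type V collagen sits inside type I fibrils and controls how they begin and how thick they grow. Its chains Col5a1, Col5a2 and Col5a3 were at 0.48 ± 0.47, 0.82 ± 0.39 and 0.39 ± 0.46 in the white fat part of the authors' deposited tables (adjusted p = 0.558, 0.211 and 0.629). In brown fat they were at -0.25 ± 0.48, -0.76 ± 0.51 and -0.41 ± 0.39 per the authors' deposited table (adjusted p = 0.964, 0.846 and 0.901). Col5a2 was the member of this trio farthest from 0 in both depots, and it lies 24614 bases from Col3a1, tail to tail, on chromosome 1 (45413481 to 45542442). Col11a1, a minor fibrillar chain of cartilage, had the highest white fat value of any collagen, 2.01 ± 0.77 (adjusted p = 0.130) per the authors' deposited table. Its mean log2 expression there was only 1.18, and in brown fat it was at 0.21 ± 1.11 per the authors' deposited table. The white fat value of Col27a1 was 1.39 ± 1.04 (adjusted p = 0.426) per the authors' deposited table, the widest error among the fibrillar genes.

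Basement membrane collagens. All 6 type IV genes lay above 0 in white fat (median 0.72), and 3 of the 4 in the brown fat table lay below 0 (median -0.30), with none past the adjusted p. Col4a1 and Col4a2 make the chains found in nearly every basement membrane. They lie head to head on chromosome 8 (Col4a1 at 11248423 to 11362826, Col4a2 at 11362805 to 11499287, GRCm39), so that their annotated 5′ ends overlap by 22 bases. In the white fat part of the authors' deposited tables Col4a1 was at 0.70 ± 0.36 (adjusted p = 0.250) and Col4a2 at 0.60 ± 0.36 (adjusted p = 0.326). In brown fat the pair was farther apart, with -0.47 ± 0.17 for Col4a1 (p = 0.0107, adjusted p = 0.650) and -0.12 ± 0.18 for Col4a2 (adjusted p = 0.948) per the authors' deposited table. The difference between the partners was not tested, since the covariance of their errors is not in the tables.

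The remaining type IV chains are known from the kidney filter and other specialised membranes. Their mean log2 expression in white fat was at most 3.42 per the authors' deposited table, against 9.53 for Col4a1. Col4a4 was at 0.11 ± 0.86 in white and 1.35 ± 0.94 in brown fat per the authors' deposited tables, the one type IV gene above 0 in brown fat. Col4a5 was at 1.42 ± 0.88 in white and -2.01 ± 1.22 in brown fat per the authors' deposited tables, at mean log2 expressions of 1.76 and 0.54. Col4a3 and Col4a6, found in the white fat table only, were at 1.07 ± 1.12 and 0.73 ± 1.26 per the authors' deposited table. Between Col4a3 and Col4a4 lie 71 bases and between Col4a6 and Col4a5 1308 bases, both head to head, so the 6 genes form 3 such pairs. Their levels did not pair up in the same way, since the white fat mean per kb was -3.31 for Col4a3 and 0.08 for Col4a4.

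Other collagens. Of 19 genes in white fat 14 lay above 0 (median 0.47), and of 13 in brown fat 10 lay below 0 (median -0.37), with none past the adjusted p in either. Type VI collagen forms beaded filaments around adipocytes, and Col6a3 also gives rise to the secreted fragment endotrophin. The 3 classical chains Col6a1, Col6a2 and Col6a3 were at 0.96 ± 0.41 (p = 0.0369, adjusted p = 0.174), 0.54 ± 0.40 (adjusted p = 0.423) and 0.47 ± 0.45 (adjusted p = 0.543) in the white fat part of the authors' deposited tables. In brown fat they were at -0.65 ± 0.50, -0.36 ± 0.47 and -0.48 ± 0.35 (adjusted p = 0.879, 0.936 and 0.860) per the authors' deposited table. Col6a1 was the farthest from 0 of the 3 in both depots.

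The later type VI chains did not share the sign of the classical ones in white fat. Col6a4, Col6a5 and Col6a6 lie side by side on one strand of chromosome 9, from 105565008 to 105973982, with 28810 bases between Col6a4 and Col6a5 and 27917 between Col6a5 and Col6a6. In the white fat part of the authors' deposited tables they were at -3.59 ± 1.33 (p = 0.0179, adjusted p = 0.120), -1.61 ± 1.31 (adjusted p = 0.464) and -0.64 ± 0.71 (adjusted p = 0.603). Col6a4 had the smallest adjusted p of any collagen. Mean log2 expression was -0.40, -0.44 and 2.31 per the authors' deposited table, against a median of 3.93 over all genes and a lowest value of -1.66, so all 3 were scarce. The T cell markers (median -8.17) and B cell markers (median -8.61) lay below 0 in the same table, and their part in these values was not tested. Of the trio only Col6a6 was in the brown fat table, at -1.40 ± 1.12.

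Multiplexins lie between basement membrane and fibrils, and endostatin is cut from the Col18a1 product. Col15a1, next after Col4a1 in white fat by level per kb, was at 0.40 ± 0.47 (adjusted p = 0.629) in white and -0.51 ± 0.41 (adjusted p = 0.879) in brown fat per the authors' deposited tables. Col18a1 was at 0.53 ± 0.47 in white and 0.14 ± 0.89 in brown fat per the authors' deposited tables. The fibril-associated collagens coat fibrils and link them to their surroundings. In white fat all 5 of them lay above 0. Col12a1 was at 1.31 ± 0.50 (p = 0.0211, adjusted p = 0.130), Col16a1 at 0.65 ± 0.54 and Col14a1 at 0.09 ± 0.53 per the authors' deposited table, while Col9a2 and Col9a3, best known from cartilage, had errors of 1.25 and 1.39. In brown fat Col12a1, Col14a1 and Col16a1 were at -0.51 ± 0.59, -0.62 ± 0.59 and -0.37 ± 0.89, and Col20a1 at 0.20 ± 1.10, per the authors' deposited table.

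The remaining classes spread to both sides. Col8a1, a short-chain collagen of vessel walls, was at 0.69 ± 0.52 in white and -0.12 ± 0.56 in brown fat per the authors' deposited tables. The membrane-spanning Col13a1 and Col23a1 were at 1.03 ± 0.77 and 0.16 ± 0.67 in white fat and at -0.02 ± 0.78 and 0.14 ± 0.78 in brown fat per the authors' deposited tables. Col17a1, which anchors epithelial cells through hemidesmosomes, was at -1.49 ± 1.31 in the white fat part of the authors' deposited tables. Col7a1, the anchoring fibril of skin, was at 1.54 ± 1.52 in white fat per the authors' deposited table. Col28a1, a collagen of peripheral nerve, was at -1.80 ± 0.86 (adjusted p = 0.213) in the white fat part of the authors' deposited tables. Of the 6 Schwann cell markers 5 lay above 0 in white fat (median 0.77), the exception being the myelin gene Mbp at -1.05 ± 0.24 (adjusted p = 0.0362) per the authors' deposited table. Mbp was the 1 of the 6 past the adjusted p, which 4.75% of all genes passed. The part of these cells in the Col28a1 value was not tested.

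Did the interaction differ between white and brown fat? The difference of both interactions was tested per gene over the 14502 genes in both tables, taking the tables as independent. If both depots came from the same mice that assumption would not hold, and this cannot be told from the labels. None of the 24 shared collagens passed an adjusted p of 0.05, which 0.248% of all shared genes did, and the smallest adjusted p was 0.130. White minus brown was above 0 for 23 of 24 collagens (58.4% of all shared genes), with a median of 0.98 against 0.20 over all shared genes. Of the 24, 19 were above 0 in white and below 0 in brown fat, which by itself puts their difference above 0. That pattern was found in 26.3% of all shared genes. At an unadjusted p of 0.05, 9 of 24 passed above 0, against 9.73% of all shared genes.

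The 9 were 5 fibrillar genes, 2 type IV genes and 2 of the others. Col1a2 had the smallest p, with a difference of both limma estimates of 1.53 ± 0.47 (adjusted p = 0.130) and a 95% interval from 0.55 to 2.50. Col3a1 differed by 1.42 ± 0.50 (adjusted p = 0.174), Col1a1 by 1.31 ± 0.48 (adjusted p = 0.188) and Col5a2 by 1.58 ± 0.64 (adjusted p = 0.214). The difference was 1.17 ± 0.40 for Col4a1 (adjusted p = 0.172) and 0.72 ± 0.41 for Col4a2 (adjusted p = 0.406). For Col6a1 it was 1.61 ± 0.65 (adjusted p = 0.214), for Col12a1 1.83 ± 0.77 (0.241), for Col27a1 2.32 ± 1.07 (0.310) and for Col4a5 3.42 ± 1.51 (0.256). Col4a4 was the one shared collagen below 0, at -1.25 ± 1.28, and Col23a1, at 0.02 ± 1.03, also fell below 0 once the median of each table was subtracted. Class medians were 1.48 for fibrillar, 0.94 for type IV and 0.90 for the other genes. The skeletal muscle markers had the same order of signs (medians 3.70 in white and -3.30 in brown fat), and their part in the difference was not tested.

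**Figure D3:**
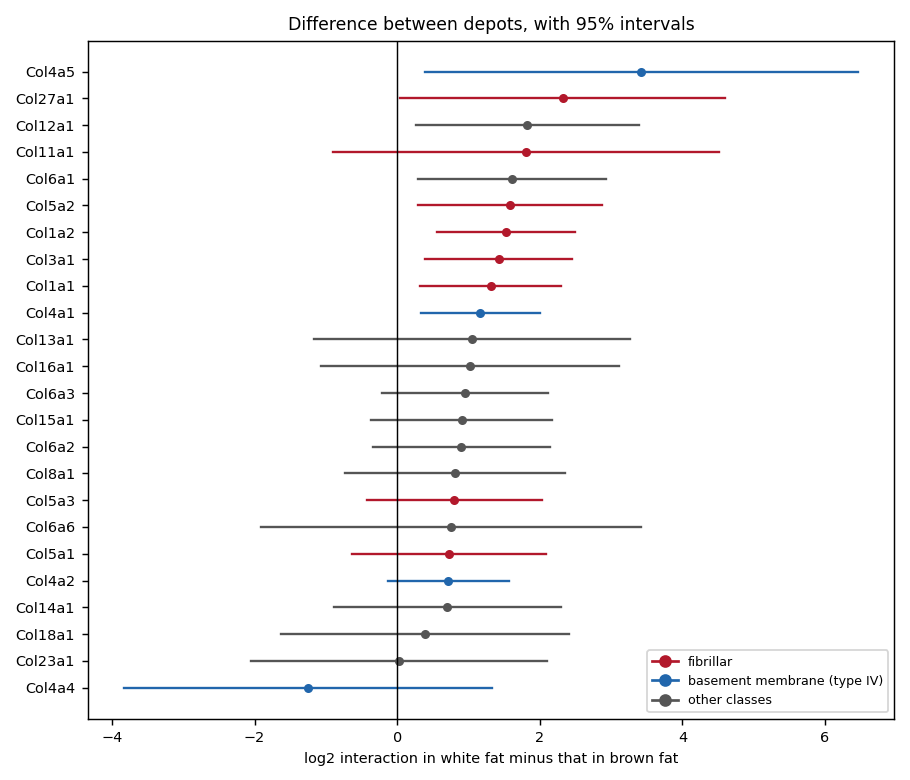
Log2 interaction in white fat minus that in brown fat (x axis) for the 24 collagens in both tables, with 95% intervals, coloured by class and sorted by size. The points run from -1.25 for Col4a4 to 3.42 for Col4a5, 23 lie above 0, and none passed the adjusted p.

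Genes that make and finish collagen leaned like the collagens in white fat, without a call. Over all genes, the share above 0 was 55.9% in white and 51.0% in brown fat, and 4.75% and 0.013% passed the adjusted p. Prolyl and lysyl hydroxylases and their partners modify the chains before they fold. Of 15 such genes 12 lay above 0 in white fat (median 0.46) and 6 of 14 in brown fat (median -0.13), with none past the adjusted p in either. Plod2, a lysyl hydroxylase, was at 1.68 ± 0.54 (adjusted p = 0.0845) and P4ha1, a prolyl hydroxylase subunit, at 1.26 ± 0.48 (adjusted p = 0.130) in the white fat part of the authors' deposited tables. Among chaperones and export factors 8 of 9 lay above 0 in white fat (median 0.48) and 4 of 9 in brown fat (median -0.06), none past the adjusted p. Serpinh1, the collagen chaperone HSP47, was at 0.90 ± 0.29 (adjusted p = 0.0857) in white and -0.14 ± 0.27 in brown fat per the authors' deposited tables. Enzymes that trim procollagen and crosslink fibrils lay above 0 in 8 of 11 cases in white fat (median 0.50) and below 0 in 7 of 9 in brown fat (median -0.65), again none past it. Pcolce, an enhancer of procollagen trimming, was at 0.78 ± 0.24 (adjusted p = 0.0724) and the crosslinking oxidase Lox at 0.50 ± 0.41 (adjusted p = 0.469) in the white fat part of the authors' deposited tables.

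Breakdown enzymes, receptors and TGF-β signalling genes lay on both sides of 0 in each depot. Their white fat values ran from -1.10 to 2.57, from -1.68 to 0.49 and from -1.17 to 1.09. For comparison, 55.9% of all genes lay above 0 in white and 51.0% in brown fat, and 4.75% and 0.013% passed the adjusted p. For proteases of collagen and their inhibitors the median was 0.18 in white fat (11 of 16 above 0) and -0.23 in brown fat (5 of 15 above 0), with none past the adjusted p. Timp4, an inhibitor of matrix proteases, was at 0.91 ± 0.33 (adjusted p = 0.114) in the white fat part of the authors' deposited tables. Collagen receptors had medians of 0.07 and -0.05, with 4 of 7 above 0 in white fat and 3 of 7 in brown fat and none past the adjusted p. Itga1, a collagen-binding integrin chain, was at 0.49 ± 0.24 (adjusted p = 0.222) and Itga2, a chain of another such integrin, at -1.10 ± 0.53 (adjusted p = 0.215) in the white fat part of the authors' deposited tables. In the TGF-β list, the main signal for collagen production, 9 of 16 lay above 0 in white fat (median 0.31) and 8 of 16 in brown fat (median 0.09). None passed, and the ligand Tgfb2 was at 1.07 ± 0.62 (adjusted p = 0.297) in the white fat part of the authors' deposited tables.

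Partners of type IV collagen lay above 0 throughout in white fat, where 55.9% of all genes did and 4.75% passed the adjusted p. The shares over all genes in brown fat were 51.0% and 0.013%. All 11 laminins, nidogens, perlecan and other basement membrane genes did so (median 0.62), and 7 of 11 in brown fat (median 0.14), with none past the adjusted p. Lamc1, the common laminin gamma chain, was at 0.96 ± 0.35 (adjusted p = 0.117) and Nid2, which ties laminin to type IV collagen, at 1.16 ± 0.44 (adjusted p = 0.128) in the white fat part of the authors' deposited tables. Endothelial markers, from cells that also lay down basement membrane, were above 0 in 7 of 8 cases in white fat (median 0.61) and 5 of 8 in brown fat (median 0.13). Mural cell markers were above 0 in 7 of 7 and 5 of 7 (medians 0.74 and 0.14), and mature adipocyte markers in 8 of 8 and 6 of 8 (medians 0.52 and 0.24). The part of these cells in the type IV values was not tested.

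Of 18 genes that shape the fibril 13 lay above 0 in white fat (median 0.37) and 6 in brown fat (median -0.30). The shares of all genes above 0 were 55.9% and 51.0%, and 0.013% of all genes passed in brown fat. In white fat 1 of the 18 passed the adjusted p, as did 4.75% of all genes, so the count is near the background. That gene, Fmod (chromosome 1, 133964992 to 133976015), encodes the fibril-binding proteoglycan fibromodulin and was at -4.19 ± 1.08 (limma adjusted p = 0.0453) per the authors' deposited table. Its mean log2 expression was 1.53, below the level of log2 of 10. The lymphocyte markers also lay below 0 in white fat, and their part in the Fmod value was not tested. In brown fat Fmod was at 0.45 ± 1.16 (adjusted p = 0.980) per the authors' deposited table. The elastic fibre gene Eln was at 1.06 ± 0.44 (adjusted p = 0.159) in the white fat part of the authors' deposited tables. Fibroblast and preadipocyte markers, from the main source of fibrillar collagen, were divided in white fat (7 of 12 above 0, median 0.15) and mostly below 0 in brown fat (9 of 12, median -0.31), with none past the adjusted p. In the white fat part of the authors' deposited tables Thy1 was at -1.61 ± 0.47 (limma adjusted p = 0.0612) and Icam1 at -1.53 ± 0.54 (adjusted p = 0.105). Dpp4 was at -1.24 ± 0.52 (adjusted p = 0.162) and Pi16 at 1.38 ± 0.52 (adjusted p = 0.127) there. All 9 T cell markers also lay below 0 in white fat (median -8.17), and their part in these values was not tested. In bulk tissue fewer cells of a type and less RNA per cell cannot be told apart.

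**Figure D4:**
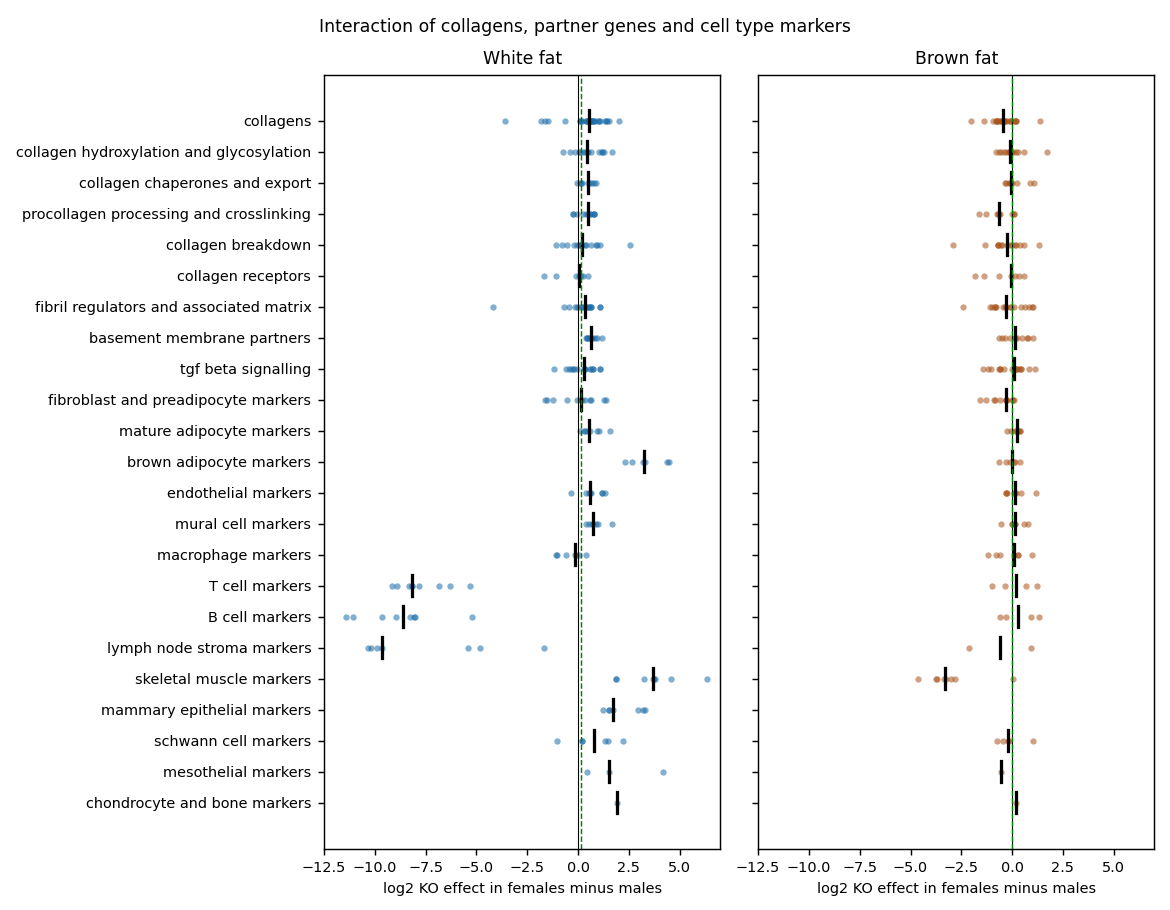
Log2 interaction (x axis) of each measured gene of the collagen family, of the lists of partner genes and of cell type markers, in white fat (left) and brown fat (right). Points are genes, black bars are list medians and the dashed line is the median of all genes. The collagen bar lies at 0.55 on the left and -0.47 on the right, and the T cell bar lies at -8.17 on the left.

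Cell types that could bring collagens of their own were checked by their markers. Beside these counts stand the shares of all genes above 0, 55.9% in white and 51.0% in brown fat. In white fat 4.75% of all genes passed the adjusted p. Of the cartilage and bone markers chosen for this work (Acan, Sox9, Comp, Ibsp, Sp7 and Bglap) only Sox9 was in either table, at 1.92 ± 1.09 in white and 0.17 ± 0.56 in brown fat per the authors' deposited tables. Mammary epithelial markers lay above 0 in 7 of 7 cases in white fat (median 1.74) and mesothelial markers in 3 of 3 (median 1.50), with none past the adjusted p. Macrophage markers lay below 0 in 5 of 7 cases in white fat (median -0.14) and above 0 in 4 of 7 in brown fat (median 0.07). Brown adipocyte markers lay above 0 in 6 of 6 cases in white fat (median 3.25), with wide errors (median SE 2.67). Only 1 of the 6 passed the adjusted p, which 4.75% of all genes passed. That gene was Kcnk3, at 3.20 ± 0.81 (adjusted p = 0.0438) per the authors' deposited table, while Ucp1 was at 3.29 ± 5.70 (adjusted p = 0.749). Lymph node stroma markers, from cells that make reticular fibres, lay below 0 in 7 of 7 cases in white fat (median -9.63). Of these 7, 1 passed the adjusted p, namely Ccl19 at -9.63 ± 2.42 (limma adjusted p = 0.0427) per the authors' deposited table. The part of these cell types in the collagen values was not tested.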

How the data were processed

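The submitters' processing notes name featureCounts, limma and the GRCm39 build, and the sources used here state no version, aligner, annotation or strand setting. The deposited tables hold, per the file headers, limma's output for 1 contrast in each depot. The log2 interaction and the mean log2 expression are the authors' values, with a normalisation and offset that the sources used here do not state. The moderated t is a score the authors deposited. Both p-values and adjusted p-values were deposited by the authors, and a Benjamini-Hochberg adjustment over each whole table gave the latter again.

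The standard error was computed as the log2 interaction divided by t, and 95% intervals from it with the degrees of freedom implied by t and p (13.4 in white fat, 33.9 in brown fat). Depots were compared per gene by subtracting the brown from the white interaction and dividing by the standard error of that difference, the square root of the sum of squares (two-sided, Welch-Satterthwaite degrees of freedom, Benjamini-Hochberg adjustment over all shared genes). That step was tested on simulated data with independent errors, which cannot check whether the depots are independent. Lists are described by counts and medians. Transcript lengths came from GENCODE M21 (GRCm38), whose positions were not used. All genes of a table entered each adjustment, with a threshold of 0.05. Computation used scipy 1.17.1, pandas 2.3.3 and numpy 2.4.6 under Python 3.11.15, and matplotlib 3.10.9 drew the figures.

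The 48 columns of library values, 12 in each of 4 tables, have names that match no label and were used in no step, so the planned fit of KO against WT within each sex was not made. Alternatives were a threshold of 0.10, protein-coding genes only, a minimum mean log2 expression of log2 of 10, centring on the median of all genes and, for the depot difference, the smaller degrees of freedom. Members and lists were chosen with earlier results of these data known. Named genes were all collagens, Ndufs4, and up to 4 genes of each list with the smallest white fat p; Adipoq and Ucp1 were added to check the tissue.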

Additional observations from a re-analysis of the deposited data

How the results depend on the processing

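The count of collagens past the adjusted p was 0 in white fat, in brown fat and in the difference between depots under each of the 11 combinations of result and alternative run: a threshold of 0.10 (single depots only), protein-coding genes only (single depots only), only genes whose mean log2 expression reached log2 of 10, centring on the median of all genes, and the smaller degrees of freedom (depot difference only). The smallest adjusted p of any collagen ranged from 0.111 to 0.120 in white fat, from 0.291 to 0.424 in brown fat and from 0.116 to 0.260 for the difference. The median interaction of the collagens ranged from 0.42 to 0.60 in white fat and from -0.51 to -0.47 in brown fat, and the median difference from 0.87 to 1.06. The call of Fmod held with protein-coding genes only (adjusted p = 0.0432) and after centring (0.0372), and Fmod has no value under the expression minimum. No paired analysis was possible because the library columns carry no replicate number or other label. For the same reason the planned fits with another pseudocount, without each replicate in turn and with a replicate block were not run, so the weight of any 1 library is unknown. Precision is limited by 3 libraries per white fat group, and at low levels by standard errors of over 1 on the log2 scale.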
